A study of Mus musculus with 5 samples.

Results

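BMP and TGF-beta signalling was described here through 44 genes, picked by symbol from the 27919 rows of the count table that carried a gene symbol. They were 18 ligands, 7 antagonists and related inhibitors, 8 receptors, 7 SMAD genes and 4 ID genes, and each matched exactly 1 row. The RNA came from untreated forebrain at E12.5 (embryonic day), all of the C57BL/6 strain, in 3 samples labelled EedcKO and 2 wild-type littermate samples. Eed is a subunit of the Polycomb enzyme PRC2, which places the repressive methyl mark on histone H3. The sources used here do not say how Eed was deleted, in which cells, which exons were removed or whether each sample is a single embryo. P-values measure only the spread among these samples, and some of that may be technical. The comparison asks which genes of this signalling system differ in level between forebrains with and without the Eed deletion.

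Ligands of the family are secreted dimers that bring type I and type II serine/threonine kinase receptors together at the cell surface. BMP receptors phosphorylate SMAD1 and SMAD5, and TGF-beta and activin receptors phosphorylate SMAD2 and SMAD3, which enter the nucleus with SMAD4. ID genes are classical transcriptional targets of BMP signalling, SMAD6 and SMAD7 are inhibitory members that signalling itself induces, and noggin, chordin and follistatin bind ligands outside the cell. In the embryonic forebrain BMPs are produced at the dorsal midline, in the cortical hem and choroid plexus, and pattern the tissue around it.

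The deposited counts summed to between 4820630 and 5026381 per library, and 39 of the 44 genes had enough counts to be tested. These sums were 16.1% to 16.8% of the reads stated for the libraries, and the reason was not tested. The targeted gene, Eed, had 251, 233 and 247 counts in EedcKO 1, 2 and 3, against 404 in wild type 1 and 238 counts in the library labelled wild type 2. That library therefore had Eed at the EedcKO level, although reads from exons that were not removed would also be counted. With all 5 libraries Eed did not pass (log2 fold change of EedcKO over wild type -0.40, adjusted p = 0.412 by edgeR). Its log2 fold change was -0.75 against wild type 1 alone and 0.04 against the library labelled wild type 2 alone. The Eed contrast thus rested on wild type 1. The library labelled wild type 2 was also the highest for 19 of 19 tested markers of the cortical hem and choroid plexus, 6 of 6 of surface epithelium and 9 of 9 of blood. The hem and choroid plexus list summed to 392, 595 and 134 CPM (counts scaled to the library total with TMM factors) in EedcKO 1, 2 and 3, against 433 CPM in wild type 1 and 1442 CPM in the library labelled wild type 2. The surface epithelium list summed to 23.0, 14.3 and 11.3 CPM in the EedcKO libraries, against 18.1 CPM in wild type 1 and 233 CPM in the library labelled wild type 2. Forebrain markers were present in every library, and in the sum of the dorsal ones the library labelled wild type 2 lay with wild type 1. Markers of the dorsal telencephalon summed to 1857.5 to 2218 CPM in EedcKO, against 1217 and 1259 CPM in wild type, and 8 of 10 were higher in every EedcKO library than in both wild-type libraries. Of 11 ventral telencephalon markers, 9 were lower in every EedcKO library than in both. All 11 were highest in wild type 1. Their sum in the library labelled wild type 2, 1547 CPM, lay between the 1974 CPM of wild type 1 and the 771 to 1160 CPM of EedcKO. Markers of the diencephalon and hypothalamus summed to 76.8, 108 and 72.2 CPM in EedcKO 1, 2 and 3. Their sum was 313 CPM in wild type 1 and 257 CPM in the library labelled wild type 2. Of the 6 tested, 5 were lower in every EedcKO library than in both wild-type libraries. Genes of the 44 that passed in any of the fits with both wild-type libraries or with either alone are given with all of them. A fit that keeps a single wild-type library takes its spread from the EedcKO libraries and assumes that the lone library varies like them. In bulk tissue, fewer cells of a type and less RNA per cell cannot be told apart.

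With all 5 libraries, the type I BMP receptor gene Bmpr1b and the transcriptional regulator gene Id2 rose in EedcKO and none of the 44 genes fell. These are 2 of 39 tested, against 1.04% of all 13989 genes tested that rose and 2.17% that fell (edgeR, adjusted p under 0.05). Of the 39, 10 had an unadjusted edgeR p under 0.05, while 17.2% of all genes tested did. The median log2 fold change of EedcKO over wild type was -0.06 over the 39 genes, against 0.0074 over all genes tested. In 8 of the 39 every EedcKO library lay above both wild-type libraries and in 7 every EedcKO library lay below, while 16.4% of all tested genes were separated upward and 17.4% downward.

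**Figure D1:**
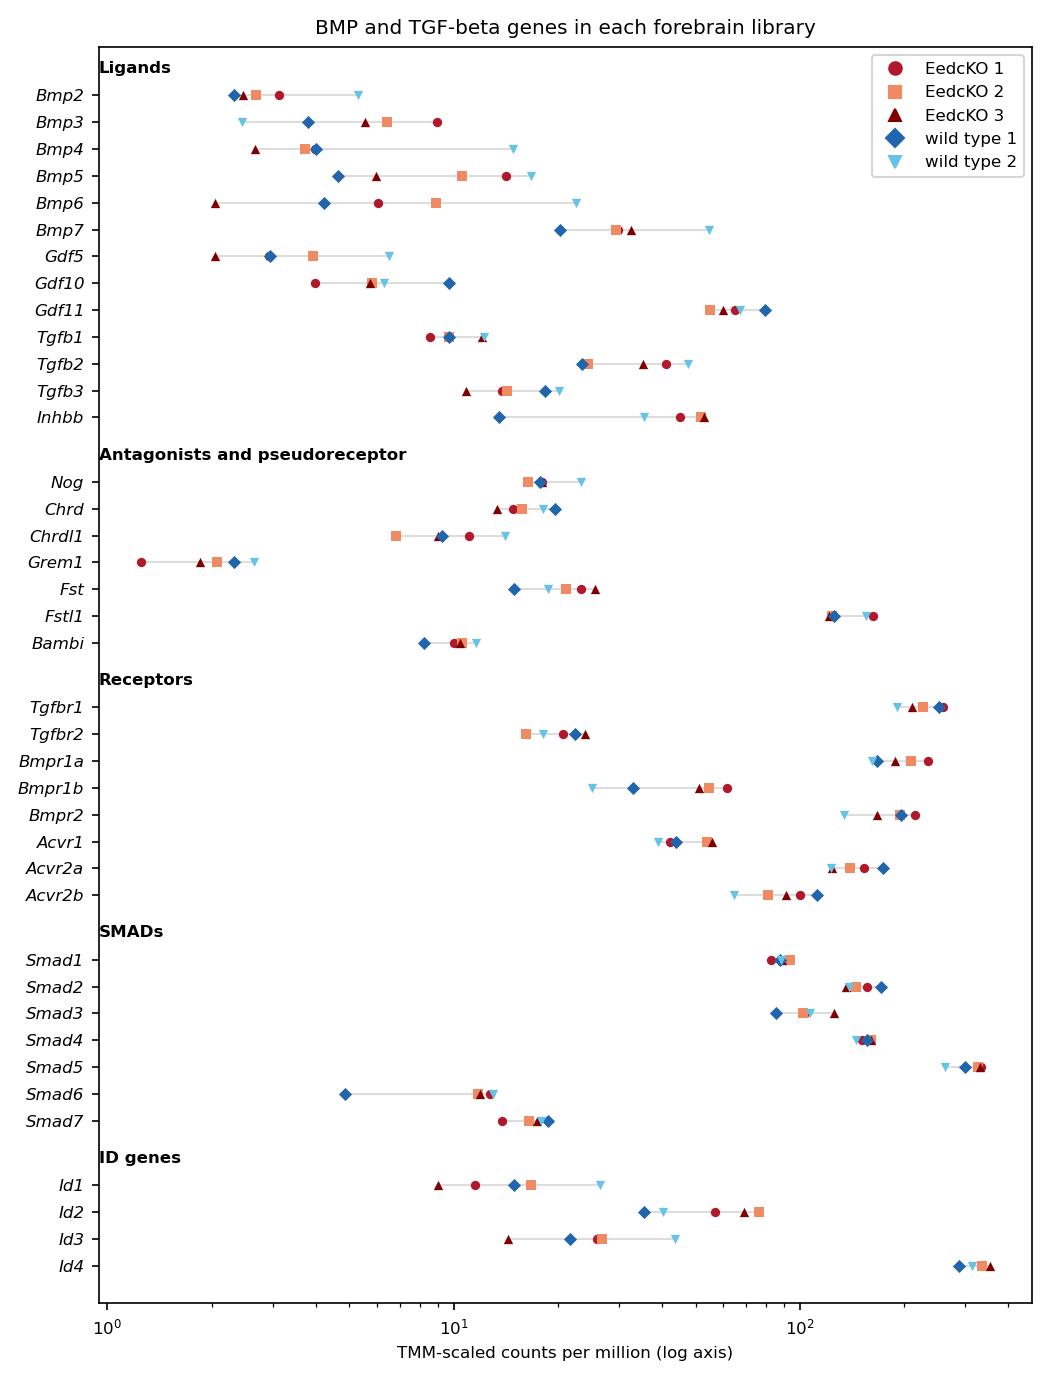
Level of each of the 39 tested genes in each of the 5 libraries, as TMM-scaled CPM on a log axis, grouped by role, with 1 point per library. Id2 and Bmpr1b have all 3 EedcKO points to the right of both wild-type points, while for Bmp4, Bmp6 and Bmp7 the library labelled wild type 2 lies to the right of the other 4.

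Bmpr1b encodes a type I receptor for BMP and GDF ligands (ENSMUSG00000052430.15, chromosome 3, 141837136 to 142169425, minus strand, mm10). It had 294, 264 and 250 counts in EedcKO 1, 2 and 3, against 156 in wild type 1 and 123 counts in the library labelled wild type 2. Every EedcKO library was above both wild-type libraries, and the library labelled wild type 2 was the lowest of the 5. The mean was 55.8 ± 5.16 CPM in EedcKO (SD, n = 3) and 28.9 ± 5.57 CPM in wild type (SD, n = 2). The log2 fold change was 0.95 (SE 0.15, adjusted p = 0.0245 by edgeR). It was 0.77 (adjusted p = 0.0270 by edgeR) without the library labelled wild type 2 and 1.14 (adjusted p = 0.00907 by edgeR) without wild type 1.

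Id2 encodes a helix-loop-helix protein that lacks a DNA-binding domain and holds back proneural factors (ENSMUSG00000020644.9, chromosome 12, 25093799 to 25097140, minus strand, mm10). It had 273, 368 and 336 counts in EedcKO 1, 2 and 3, against 168 in wild type 1 and 198 counts in the library labelled wild type 2. Mean levels were 67.3 ± 9.66 CPM in EedcKO (SD, n = 3) and 37.8 ± 3.42 CPM in wild type (SD, n = 2). The groups did not overlap, and the wild-type libraries lay closer to each other than the EedcKO libraries did. The log2 fold change was 0.83 (SE 0.15, adjusted p = 0.0310 by edgeR), with 0.93 (adjusted p = 0.0209 by edgeR) without the library labelled wild type 2 and 0.73 (adjusted p = 0.0462 by edgeR) without wild type 1. Both calls held against either wild-type library alone, and neither held without EedcKO 2 or without EedcKO 3. Without EedcKO 1, 2 and 3 in turn Bmpr1b had log2 fold changes of 0.86, 0.96 and 1.003, with an adjusted p by edgeR of 0.0663, 0.0850 and 0.119. Id2 had 0.93, 0.73 and 0.81, with an adjusted p by edgeR of 0.0303, 0.105 and 0.162. The size of both differences thus stayed close to that with all libraries. The dorsal telencephalon markers, at 1857.5 to 2218 CPM in EedcKO against 1217 and 1259 CPM in wild type, also separated the groups by their sum. Id2 ran in the same library order as that sum and Bmpr1b did not. The part of these markers in both values was not tested. EedcKO 2 and 3 carried Y-linked counts and the other 3 libraries Xist, so no wild-type library was male. With embryo sex as a covariate, which leaves EedcKO 1 against the wild type, the log2 fold change was 1.08 for Bmpr1b (adjusted p = 0.191 by edgeR) and 0.59 for Id2 (adjusted p = 0.282 by edgeR).

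The promoters of these genes are printed with those of Inhbb and Smad6, which passed against wild type 1 alone, and of Bmp4, which passed against the library labelled wild type 2 alone. Each is the 250 bases before the RefSeq start (GRCm38.p6), and of the 3 starts listed for Bmpr1b the furthest upstream is shown. The Id2 and Bmpr1b windows lie inside the longer GENCODE genes. Capitals mark GGCGCC, a GC-rich element bound by BMP-activated SMADs, and the SMAD half-site AGAC or its complement GTCT, and no marked element overlaps another.
Bmpr1b, chr3:141982265-141982514, minus strand: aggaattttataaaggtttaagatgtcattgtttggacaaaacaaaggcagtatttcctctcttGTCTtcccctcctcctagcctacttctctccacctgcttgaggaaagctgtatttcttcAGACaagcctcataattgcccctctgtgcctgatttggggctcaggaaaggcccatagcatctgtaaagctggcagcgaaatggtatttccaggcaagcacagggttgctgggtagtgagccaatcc
Id2, chr12:25096093-25096342, minus strand: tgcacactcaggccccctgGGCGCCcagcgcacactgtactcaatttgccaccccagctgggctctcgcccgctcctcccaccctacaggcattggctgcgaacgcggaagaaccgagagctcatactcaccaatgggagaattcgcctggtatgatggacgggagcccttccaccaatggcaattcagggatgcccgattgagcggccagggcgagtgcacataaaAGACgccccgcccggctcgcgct
Inhbb, chr1:119422249-119422498, minus strand: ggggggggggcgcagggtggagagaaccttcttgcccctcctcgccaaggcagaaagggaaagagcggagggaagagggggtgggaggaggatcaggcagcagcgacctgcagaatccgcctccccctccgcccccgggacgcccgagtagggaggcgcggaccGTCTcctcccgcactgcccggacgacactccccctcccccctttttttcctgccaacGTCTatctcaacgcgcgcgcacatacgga
Smad6, chr9:64022060-64022309, minus strand: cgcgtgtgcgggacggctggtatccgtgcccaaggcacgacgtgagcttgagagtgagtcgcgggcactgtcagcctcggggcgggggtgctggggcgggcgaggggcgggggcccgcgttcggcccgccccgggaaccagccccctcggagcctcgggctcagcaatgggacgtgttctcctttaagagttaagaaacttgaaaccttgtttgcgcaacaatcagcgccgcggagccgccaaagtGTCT
Bmp4, chr14:46390670-46390919, minus strand: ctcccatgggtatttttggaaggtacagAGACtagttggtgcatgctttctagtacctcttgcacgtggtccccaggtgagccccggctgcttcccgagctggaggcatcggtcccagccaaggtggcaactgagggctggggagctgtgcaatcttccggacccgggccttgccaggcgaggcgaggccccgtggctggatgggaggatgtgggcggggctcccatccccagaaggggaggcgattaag
The Id2 window was 62.8% G or C with 18 CpG dinucleotides and the Bmpr1b window 46.8% with 1, against medians of 52.4% and 6 over 32851 RefSeq promoters. The windows of Inhbb, Smad6 and Bmp4 held 21, 27 and 11 CpG dinucleotides. GGCGCC was found in the Id2 window, 231 bases before the start, and in none of the other 4. It was present in 9.59% of all promoters of this length. Of the 44 genes 30 were found by symbol in the set of 32851 RefSeq promoters used here, with 35 promoters, and the others were not examined. In 8 of the 30 at least 1 promoter held it (Id2, Id4, Bmpr1a, Bmpr2, Tgfbr1, Smad5, Chrd and Grem1). The first share is per promoter and the second per gene, so they are not directly comparable. AGAC or GTCT was present in all 5 windows, once in Id2, Smad6 and Bmp4 and at 2 places in Bmpr1b and Inhbb, as it was in 82.9% of all promoters. The palindrome GTCTAGAC, found in 0.167% of all promoters on either strand, was in none of the 30. These are matches of letters only, and binding was not measured.

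Of the 18 ligand genes 13 were tested, and none passed with all 5 libraries. Most were higher in the library labelled wild type 2 than anywhere else: 9 of the 13 had their highest level there (69.2%, against 23.3% of all tested genes). Compared with wild type 1, 8 of the 13 were at least 2-fold higher in that library, while 5.3% of all tested genes were. None of the 39 was at least 2-fold lower there, against 1.78% of all tested genes. The median log2 ratio of the library labelled wild type 2 over wild type 1 was 1.14 for the ligands and -0.02 over all tested genes. The 19 tested markers of the cortical hem and choroid plexus had a median ratio of 2.12 on the same scale, and all 19 were highest in that library. The median was 3.53 for midbrain, hindbrain and spinal cord markers and 2.43 for surface epithelium. It was 1.03 for microglia and macrophages, 0.77 for blood and 0.52 for meninges and head mesenchyme. For dorsal telencephalon it was 0.09 and for diencephalon and hypothalamus 0.07. It was negative for pericytes and smooth muscle (-0.21), ventral telencephalon (-0.32) and endothelium (-0.41). The part of any of these lists in the ligand values was not tested.

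Bmp4, a ligand of the dorsal midline, had 3.97, 3.72 and 2.67 CPM in EedcKO 1, 2 and 3, against 4.01 CPM in wild type 1 and 14.8 CPM in the library labelled wild type 2. Wild type 1 was just above the highest EedcKO library, so the groups did not overlap, and the library labelled wild type 2 stood alone. The log2 fold change was -1.45 with all libraries (SE 0.53, adjusted p = 0.213 by edgeR) and -0.21 without the library labelled wild type 2 (adjusted p = 0.866 by edgeR). Against the library labelled wild type 2 alone, whose Eed count lay within the EedcKO range, Bmp4 fell (log2 fold change -2.11, SE 0.33). Bmp2, its closest relative, had 3.13, 2.69 and 2.46 CPM in EedcKO, against 2.32 CPM in wild type 1 and 5.29 CPM in the library labelled wild type 2.

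Bmp5, Bmp6 and Bmp7 form the second BMP branch. Bmp7, the most abundant per length of the 7 BMP genes among the 44 (mean 40.0 TPM, a length-scaled unit), had 29.9, 29.4 and 32.6 CPM in EedcKO 1, 2 and 3, against 20.2 CPM in wild type 1 and 54.5 CPM in the library labelled wild type 2. All 3 EedcKO libraries lay between the wild-type libraries, so the sign of the change depended on which was used. With both, the log2 fold change was -0.29 (SE 0.36, adjusted p = 0.767 by edgeR). The log2 fold change was 0.60 against wild type 1 (SE 0.18, adjusted p = 0.0869 by edgeR) and -0.85 against the library labelled wild type 2 (SE 0.14, adjusted p = 0.0140 by edgeR). Bmp6 had 6.06, 8.90 and 2.05 CPM in EedcKO, against 4.22 CPM in wild type 1 and 22.6 CPM in the library labelled wild type 2. Its EedcKO libraries differed 4.34-fold among themselves, the widest range among tested ligands, and the hem and choroid plexus sum also ran from 134 CPM in EedcKO 3 to 595 CPM in EedcKO 2. Bmp5 had 14.2, 10.6 and 5.95 CPM in EedcKO, against 4.64 CPM in wild type 1 and 16.7 CPM in the library labelled wild type 2. For Bmp5 too the EedcKO libraries lay between the wild-type libraries, and no fit called it.

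**Figure D2:**
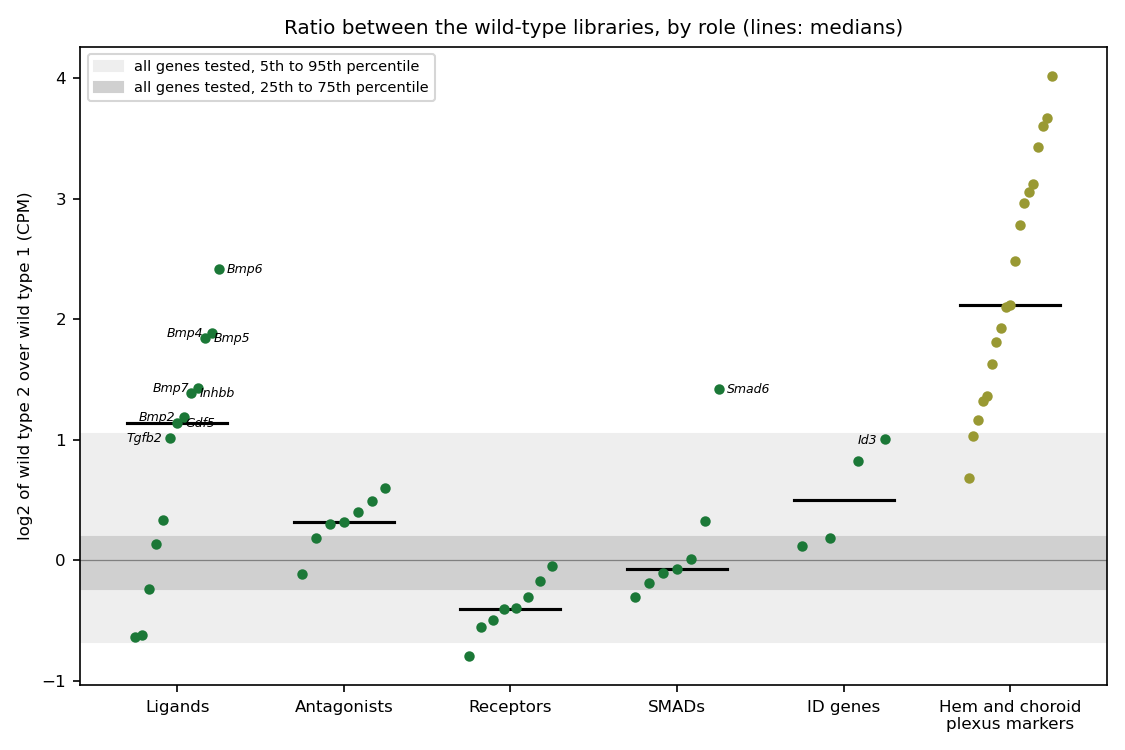
Log2 ratio of the library labelled wild type 2 over wild type 1 for each tested gene by role, and for the tested hem and choroid plexus markers, with bands for the central ranges of all 13989 tested genes and lines at the medians. The ligands have a median of 1.14 and the receptors of -0.40.

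Inhbb encodes the beta B subunit of activins and inhibins and was the second most abundant per length of the 18 ligand genes (mean 45.1 TPM). It had 216, 250 and 257 counts in EedcKO 1, 2 and 3, against 64 in wild type 1 and 174 counts in the library labelled wild type 2. In CPM these were 45.1, 51.7 and 52.7 in EedcKO, against 13.5 and 35.4 in wild type. The EedcKO libraries were all above the library labelled wild type 2, which was in turn above wild type 1. With all libraries the log2 fold change was 1.02 (SE 0.34, adjusted p = 0.183 by edgeR). Against wild type 1 alone Inhbb rose by 1.89 on the log2 scale (SE 0.19, adjusted p = 0.00171 by edgeR), and against the library labelled wild type 2 alone the value was 0.48 (adjusted p = 0.107 by edgeR). Inhba, which encodes the beta A subunit, had 7, 9 and 2 counts in EedcKO, against 7 and 8 in wild type, too few to be tested.

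Bmp3, an atypical BMP that opposes the others, had its lowest levels in the wild-type libraries. It had 43, 31 and 27 counts in EedcKO 1, 2 and 3, against 18 in wild type 1 and 12 counts in the library labelled wild type 2. The groups did not overlap, and the log2 fold change was 1.16 (SE 0.38, adjusted p = 0.162 by edgeR), short of the threshold. Gdf10, also called BMP3B, had 19, 28 and 28 counts in EedcKO, against 46 and 31 in wild type, with a log2 fold change of -0.63 (SE 0.33, adjusted p = 0.394 by edgeR). Gdf11, an activin-like ligand that limits neuron production in the embryo, was the most abundant per length of the 18 ligand genes (mean 77.6 TPM). It had 64.7, 54.8 and 60.1 CPM in EedcKO, against 79.5 CPM in wild type 1 and 67.3 CPM in the library labelled wild type 2. All EedcKO libraries were lower than both wild-type libraries, by a log2 fold change of -0.29 that did not pass (SE 0.12, adjusted p = 0.254 by edgeR).

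Among the TGF-beta isoforms Tgfb3 had 13.8, 14.3 and 10.9 CPM in EedcKO 1, 2 and 3, against 18.3 CPM in wild type 1 and 20.1 CPM in the library labelled wild type 2. The groups did not overlap and the wild-type libraries were close to each other, with a log2 fold change of -0.57 (SE 0.19, adjusted p = 0.181 by edgeR). Tgfb2, the most abundant of the 3 per length (mean 28.6 TPM), had 40.9, 24.4 and 35.3 CPM in EedcKO, against 23.4 CPM in wild type 1 and 47.4 CPM in the library labelled wild type 2. As with Bmp7, its EedcKO levels lay between those of the wild-type libraries. Tgfb1 overlapped between groups at 8.56 to 12.1 CPM in EedcKO, against 9.70 and 12.2 CPM in wild type. Gdf5, a ligand of skeletal and joint development, was at 2.05 to 3.93 CPM in EedcKO, against 2.95 CPM in wild type 1 and 6.51 CPM in the library labelled wild type 2.

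The remaining ligand genes were near the floor of detection, taken as 3 counts, or 0.610 to 0.632 CPM per library. Gdf7, a roof plate ligand, had 0, 1 and 1 counts in EedcKO, against 3 in wild type 1 and 4 counts in the library labelled wild type 2, whose 95% Poisson intervals of 0.619 to 8.77 and 1.09 to 10.2 overlap those of the EedcKO libraries. Nodal, the mesoderm-inducing ligand, had 1, 2 and 0 counts in EedcKO, against 0 and 2 in wild type. Bmp8a had 0, 1 and 0 counts in EedcKO, against 1 and 0 in wild type, and its close sequence likeness to Bmp8b makes even these counts uncertain. Gdf6 had no count in EedcKO or wild type 1 and 1 count in the library labelled wild type 2. At this depth no difference could be detected in these genes.

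Of the 7 antagonists and related inhibitors all were tested and none passed. Fst, which encodes the activin-binding protein follistatin, had 23.4, 21.1 and 25.6 CPM in EedcKO 1, 2 and 3, against 15.0 CPM in wild type 1 and 18.7 CPM in the library labelled wild type 2. All EedcKO libraries were above both wild-type libraries, by a log2 fold change of 0.47 (SE 0.18, adjusted p = 0.220 by edgeR). Chrd, which encodes chordin, was separated in the other direction, at 14.8, 15.7 and 13.3 CPM in EedcKO, against 19.6 and 18.1 CPM in wild type (log2 fold change -0.37, SE 0.17, adjusted p = 0.337 by edgeR). Nog, which encodes noggin, had 18.0, 16.3 and 18.0 CPM in EedcKO, against 17.7 CPM in wild type 1 and 23.4 CPM in the library labelled wild type 2. Its log2 fold change was -0.24 (SE 0.18) with all libraries and -0.01 against wild type 1 alone. Fstl1, a follistatin-like secreted protein and the most abundant of these genes per length (mean 135 TPM), ranged from 122 to 162 CPM in EedcKO, against 126 and 155 CPM in wild type, with a log2 fold change of -0.05 (SE 0.15). Grem1, which encodes gremlin, had 6, 10 and 9 counts in EedcKO, against 11 and 13 in wild type (log2 fold change -0.52, SE 0.43, adjusted p = 0.624 by edgeR). Chrdl1, a chordin relative, and Bambi, a pseudoreceptor that lacks the kinase domain, overlapped between the groups.

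Among the 8 receptor genes Bmpr1b alone passed with all libraries, and 7 of the 8 were lowest in the library labelled wild type 2 (87.5%, against 27.7% of all tested genes). The exception was Tgfbr2, the type II TGF-beta receptor, which was lowest in EedcKO 2. Thus receptors and ligands stood on opposite sides of wild type 1 in that library, with median log2 ratios of -0.40 and 1.14. Bmpr1a, another BMP type I receptor, had 235, 209 and 188 CPM in EedcKO 1, 2 and 3, against 167 CPM in wild type 1 and 161 CPM in the library labelled wild type 2. All EedcKO libraries were higher than both wild-type libraries, and the log2 fold change of 0.36 (SE 0.11, adjusted p = 0.143 by edgeR) did not pass. It was 0.34 and 0.37 with wild type 1 alone and with the library labelled wild type 2 alone. Tgfbr1, the type I TGF-beta receptor and the most abundant per length of the 8 receptor genes (mean 168 TPM), had 259, 226 and 210 CPM in EedcKO, against 252 and 191 CPM in wild type, with a log2 fold change of 0.07 (SE 0.14).

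For the activin type II receptor genes the sign of the difference depended on the wild-type library. Acvr2b, an activin receptor, had 479, 390 and 445 counts in EedcKO 1, 2 and 3, against 530 in wild type 1 and 317 counts in the library labelled wild type 2. Its EedcKO levels all lay between the wild-type libraries, with log2 fold changes of -0.29 against wild type 1 alone and 0.48 against the library labelled wild type 2 alone. Acvr2a likewise had 153, 140 and 124 CPM in EedcKO, against 173 and 123 CPM in wild type. Bmpr2, the BMP type II receptor, had 214, 194 and 167 CPM in EedcKO, against 196 CPM in wild type 1 and 134 CPM in the library labelled wild type 2. Acvr1, also a BMP type I receptor, had a log2 fold change of 0.29 (SE 0.15, adjusted p = 0.376 by edgeR).

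**Figure D3:**
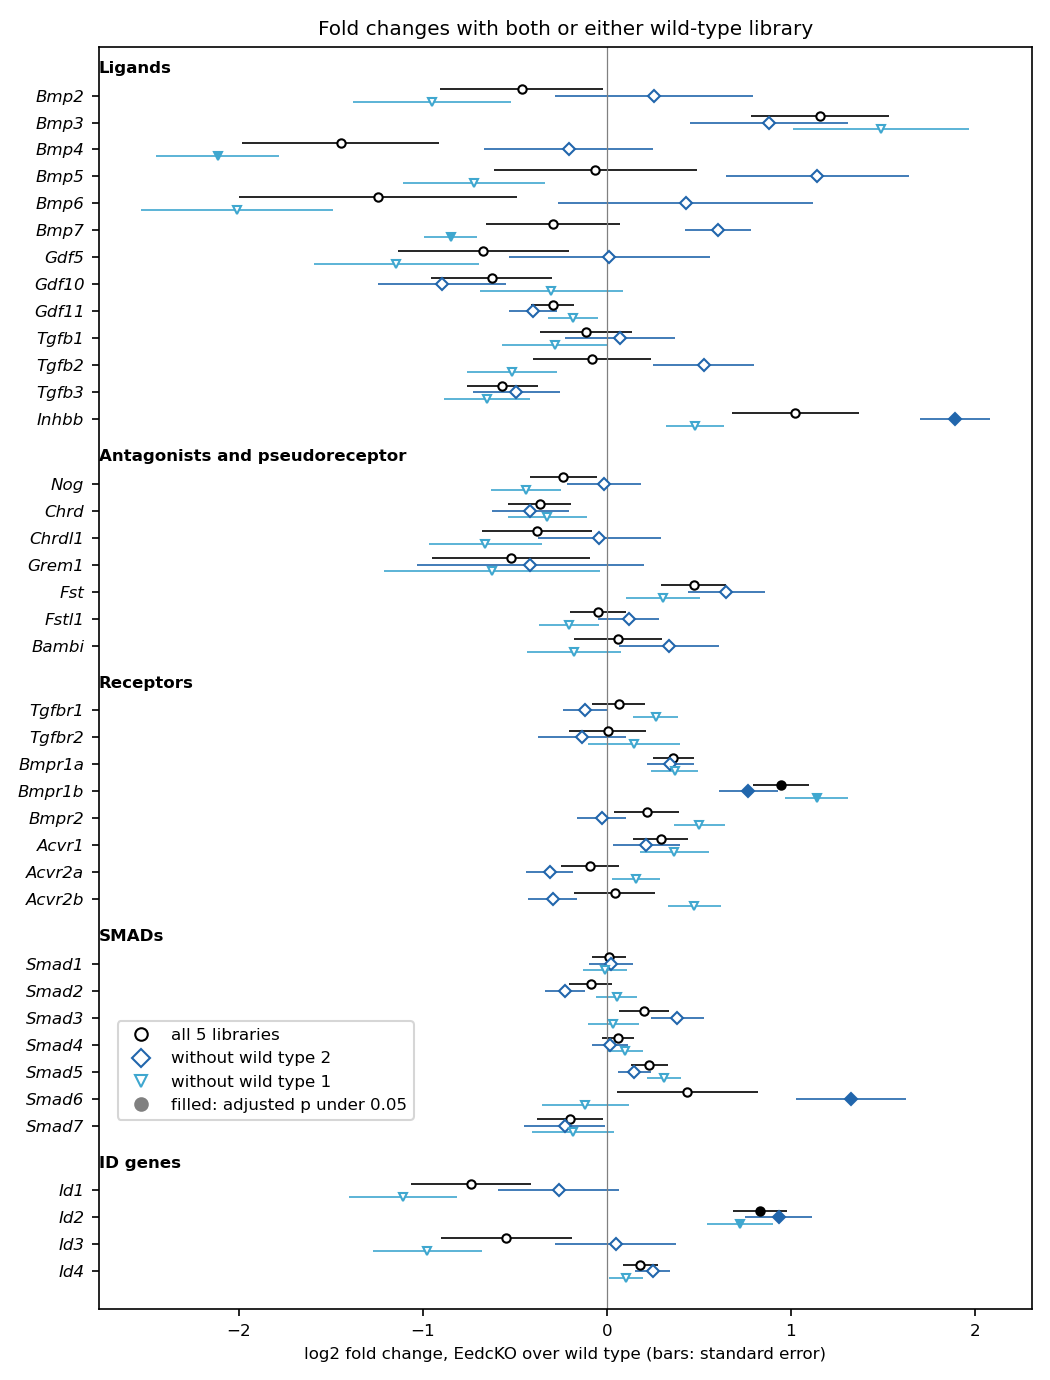
Log2 fold change of EedcKO over wild type with its standard error for each tested gene, from edgeR with all 5 libraries, without the library labelled wild type 2 and without wild type 1. Filled symbols mark an adjusted p under 0.05: Bmpr1b and Id2 are filled in all 3 fits, Inhbb and Smad6 in the fit without the library labelled wild type 2, and Bmp4 and Bmp7 in the fit without wild type 1.

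None of the 7 SMAD genes passed with all libraries. Smad1 had 82.7, 93.7 and 88.8 CPM in EedcKO 1, 2 and 3, against 87.5 and 88.0 CPM in wild type, with a log2 fold change of 0.01 (SE 0.09). Smad4, the shared partner (mean 201 TPM), had 151, 161 and 161 CPM in EedcKO, against 156 and 146 CPM in wild type (log2 fold change 0.06, SE 0.09). Smad5, the most abundant per length of the 7 SMAD genes (mean 202 TPM), was above both wild-type libraries in every EedcKO library, at 332, 327 and 331 CPM against 299 CPM in wild type 1 and 263 CPM in the library labelled wild type 2. Its log2 fold change was 0.23 (SE 0.10, adjusted p = 0.283 by edgeR). Smad2 and Smad3, the TGF-beta and activin effectors, had values of -0.09 (SE 0.12) and 0.20 (SE 0.14) on the same scale.

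Of the inhibitory pair, Smad6 had 61, 57 and 58 counts in EedcKO 1, 2 and 3, against 23 in wild type 1 and 64 counts in the library labelled wild type 2. The library labelled wild type 2 was just above the EedcKO range of 11.8 to 12.7 CPM, at 13.0 CPM, and wild type 1 stood alone at 4.85 CPM. The log2 fold change was 0.44 with all libraries (SE 0.38, adjusted p = 0.644 by edgeR) and -0.12 against the library labelled wild type 2 alone. Against wild type 1 alone Smad6 rose by 1.33 on the log2 scale (SE 0.30, adjusted p = 0.0352 by edgeR). Smad7 had 13.8, 16.6 and 17.4 CPM in EedcKO, against 18.8 and 17.9 CPM in wild type, with a log2 fold change of -0.20 (SE 0.18, adjusted p = 0.652 by edgeR).

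Of the 4 ID genes Id2 alone passed, as given above. Id4, the most abundant of the 44 genes per length (mean 408 TPM), had 334, 336 and 353 CPM in EedcKO 1, 2 and 3, against 288 CPM in wild type 1 and 313 CPM in the library labelled wild type 2. The groups did not overlap, and the log2 fold change of 0.18 (SE 0.10, adjusted p = 0.396 by edgeR) did not pass. Id1 had 11.5, 16.8 and 9.02 CPM in EedcKO, against 15.0 CPM in wild type 1 and 26.4 CPM in the library labelled wild type 2 (log2 fold change -0.74, SE 0.33, adjusted p = 0.304 by edgeR). Id3 had 25.9, 26.9 and 14.4 CPM in EedcKO, against 21.7 and 43.5 CPM in wild type (-0.55, SE 0.35, adjusted p = 0.510 by edgeR). For Id1 and Id3 wild type 1 lay inside the EedcKO range, the library labelled wild type 2 was highest and EedcKO 3 lowest. That is also the order of the extremes of the hem and choroid plexus sum, whose part in these values was not tested.

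**Figure D4:**
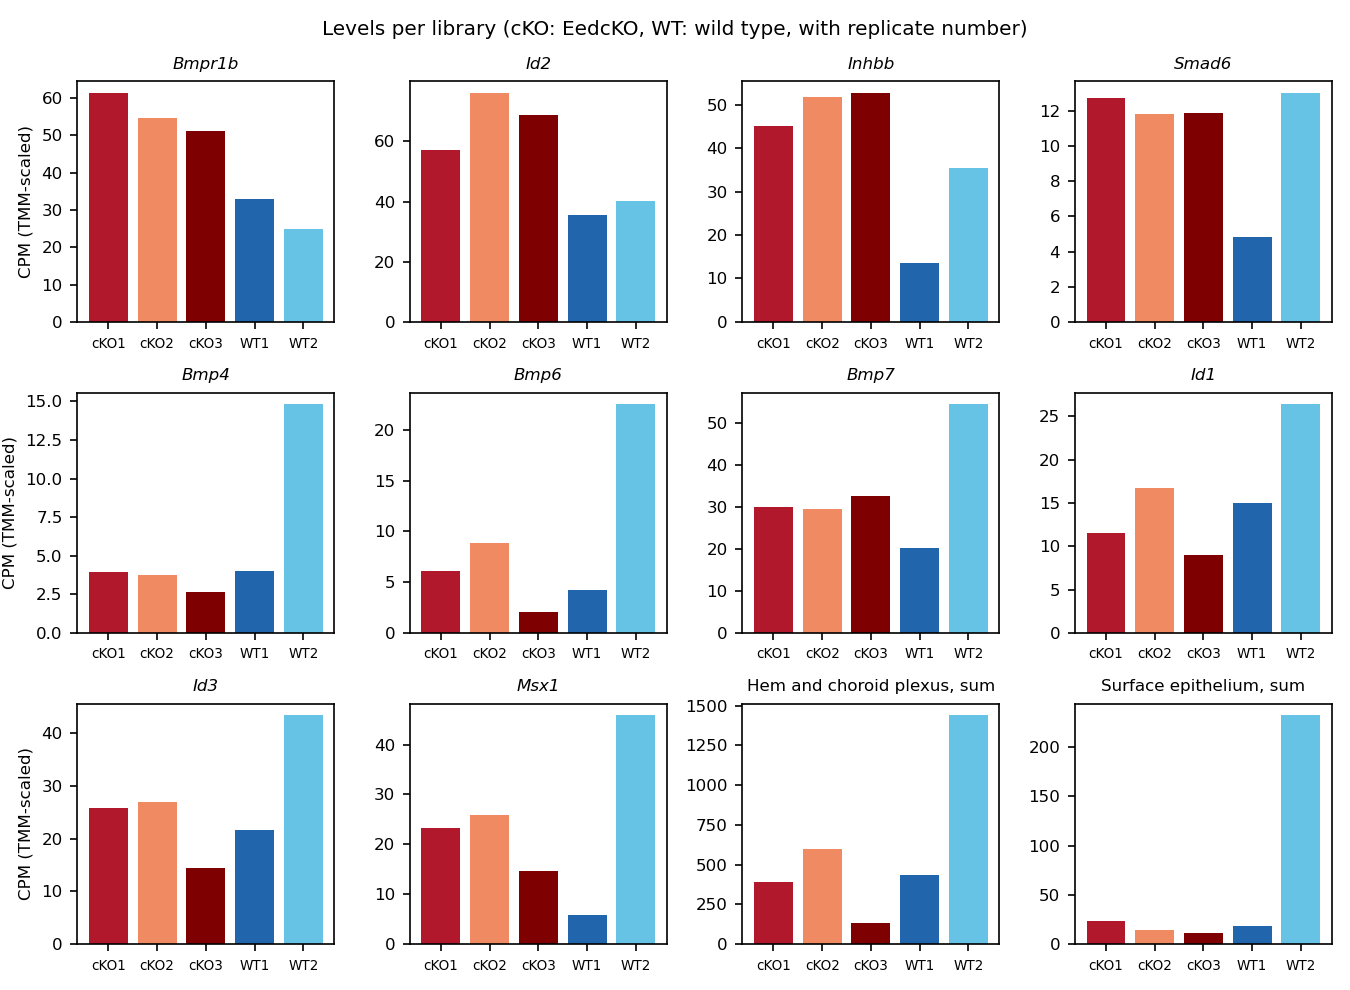
Levels of 9 of the genes, of the BMP target Msx1 and of the summed hem and choroid plexus and surface epithelium markers, with 1 bar per library in TMM-scaled CPM from 0. Bmpr1b, Id2 and Inhbb are higher in every EedcKO library than in both wild-type libraries. All other panels peak in the library labelled wild type 2. Id2, Inhbb, Smad6, Bmp7 and Msx1 are lowest in wild type 1.

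Against wild type 1 alone, 4 genes rose (Bmpr1b, Id2, Inhbb and Smad6) and none fell, of 39 tested, against 2.07% of 14232 genes that rose and 4.12% that fell. Against the library labelled wild type 2 alone, 2 rose (Bmpr1b and Id2) and 2 fell (Bmp4 and Bmp7), against 3.01% and 4.02% of 14409 genes. These fits share their EedcKO libraries. Bmpr1b and Id2 were the genes called in both.

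Beyond the 44, a list of 86 further genes of the pathway held 84 in the table and 62 tested, of which none rose and 2 fell (3.23%, beside the 2.17% of all genes given above). One of them, Dlx5, is listed as a BMP target and is also a homeodomain factor of GABAergic neurons of the ventral forebrain. It had 49.7, 38.7 and 38.5 CPM in EedcKO, against 88.5 and 71.6 CPM in wild type (-0.92, SE 0.15, adjusted p = 0.0247 by edgeR). Dlx5 kept its call with either wild-type library, and lost it without EedcKO 2 (adjusted p = 0.0938 by edgeR) or EedcKO 3 (0.148). Markers of the ventral telencephalon summed to 771 to 1160 CPM in EedcKO, against 1974 CPM in wild type 1 and 1547 CPM in the library labelled wild type 2, and their part in the Dlx5 value was not tested. Over the 62 genes the median was -0.03 on the log2 scale.

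Msx1, a homeobox target of BMP that is also one of the hem markers, had 23.2, 25.9 and 14.6 CPM in EedcKO 1, 2 and 3, against 5.90 CPM in wild type 1 and 45.9 CPM in the library labelled wild type 2. The EedcKO libraries lay between the wild-type libraries. Msx1 rose against wild type 1 alone (log2 fold change 1.85, adjusted p = 0.0247 by edgeR) and fell against the library labelled wild type 2 alone (-1.13, adjusted p = 0.0380 by edgeR), and its value with both was -0.30 (SE 0.78). Other further genes passed against 1 wild-type library only, and none of these passed with both. The shares of all genes passing in those fits are given above. Log2 fold changes follow for wild type 1 alone, the library labelled wild type 2 alone and both, in that order. Passing against wild type 1 alone, the latent TGF-beta binding protein genes had 0.94, 0.24 and 0.56 (Ltbp3) and 0.64, 0.38 and 0.51 (Ltbp4). The transcription factor gene Hey1 had 1.07, 0.46 and 0.74 there, and the BMP coreceptor gene Rgmb -0.78, -0.29 and -0.55. Vwc2l, which encodes a secreted relative of chordin, had -3.13 against wild type 1 alone and was tested in neither other fit. Passing against the library labelled wild type 2 alone, the SMAD-interacting repressor gene Zeb2 had 0.21, 0.85 and 0.49. The follistatin-like gene Fstl5 had 0.11, 1.02 and 0.50 there, and the cell cycle inhibitor gene Cdkn1a -0.02, -1.44 and -0.89.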

How the data were processed

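Polyadenylated RNA of 3 EedcKO and 2 wild-type forebrain samples was sequenced on libraries prepared by a BGISEQ-500 procedure, per the labels. Samples were grouped by title. The submitters' processing notes name HISAT2 2.2.0 and mm10. The sources used here give no counting tool, strand setting or annotation. The authors deposited whole-number counts per gene, not normalized, and TPM, which sums to the same total in each library. Among 56196 rows of counts, 28277 rows (50.3%) had no symbol and held 2.01% to 2.16% of the counts. Such rows were not used, and 0 columns belonged to other samples.

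Counts were fitted in R 4.3.3 with edgeR 4.0.16: filterByExpr by group, TMM, robust glmQLFit, and glmQLFTest for the group term, with Benjamini-Hochberg adjustment over 13989 genes and a threshold of 0.05. The SE is the log2 fold change over the root of F. DESeq2 1.42.0, limma 3.58.1 (voom, and its trend method on log2-transformed TPM, pseudocount 1 or 0.1), other scalings and filters, embryo sex, a replicate block and each library left out were alternatives. On simulated counts for 13989 genes this comparison recovered 29.9%, 70.1% and 90.9% of genes changed 1.5-fold, 2-fold and 4-fold, and 20 of 147 calls were false. That share of false calls was above the 0.05 that the threshold is meant to hold. Poisson intervals (95%, two-sided, so wider than the floor of 3 counts) and that floor describe counting error alone, because there were no molecular identifiers.

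The genes, lists and tests were chosen with earlier results of these data known. Every gene of the 44 is accounted for. Of the further pathway genes, 1 that passed is not reported here. Values in each library were given for genes past the threshold with all libraries or without the library labelled wild type 2, the 2 most abundant and the most changed of each role, and separated genes changed at least 2-fold. Further genes with such values (among them Bmp2, Bmp5, Bmp6, Bmp7, Tgfb2, Tgfb3, Id1, Id3, Msx1) were added after their values were seen. Exons of 11 of the 44 genes overlap a gene on the opposite strand (Bmp4, Bmp5, Bmp6, Bmpr1a, Gdf5, Tgfb2, Tgfb3, Fst, Chrd, Acvr2a and Id4) and Smad5 overlaps 1 on its own, so their reads cannot be told apart without strand. Coordinates are GENCODE M21 and sequences RefSeq, both of GRCm38, the assembly of mm10.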

Additional observations from a re-analysis of the deposited data

How the results depend on the processing

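The 2 increases held under RLE size factors, library size alone, DESeq2, limma-voom, a filter of 1 CPM in 2 libraries, all genes with counts, non-robust fitting and log2 of filtered TPM. They numbered 0 with log2 of TPM plus 1 and no filter, with the replicate block and with embryo sex as covariate, and 0 to 4 with each library left out. Decreases numbered 0 to 2 with each library left out. Further pathway increases numbered 2 with DESeq2, 1 with no count filter and 0 to 4 with each library left out. Further pathway decreases numbered 4 with library size alone, 1 with limma-voom and with robust estimation off, 0 with unfiltered TPM, embryo sex and the replicate block, and 0 to 3 with each library left out. In the replicate block no gene of all 13989 passed (2169 had an unadjusted edgeR p under 0.05), and with embryo sex none passed either (1611). Without EedcKO 3 none passed (1887). Bmpr1b had 1.01 and Id2 0.81 in the replicate block. The labels tie no shared number to a litter or day. Deviations of same-numbered libraries correlated at -0.00905 and 0.127, and those of EedcKO 3 and wild type 1 at 0.126. With 2 wild-type libraries the deviations of 1 are those of the other with the sign reversed. These correlations therefore cannot decide whether libraries were paired.

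Signs also turned in genes that did not pass with all libraries. Bmp5 had 0.11 with limma-voom and with TPM plus 1, filtered or not, 0.14 with TPM plus 0.1, 0.39 with the replicate block and 0.41 with embryo sex. Tgfbr2 had -0.0032 with library size alone, -0.0042 with limma-voom and -0.14 with the block. Smad1 had -0.0014 with library size alone and -0.086 with embryo sex. Fstl1 had 0.024 with the block and 0.21 with embryo sex, Acvr2a 0.00019 and 0.049, and Tgfb2 and Smad2 had 0.21 and 0.0092 with embryo sex. With each library left out, log2 fold changes ran from -0.95 to 0.26 for Bmp2, -0.72 to 1.14 for Bmp5, -2.01 to 0.43 for Bmp6, -0.85 to 0.60 for Bmp7, -1.14 to 0.014 for Gdf5, -0.28 to 0.070 for Tgfb1 and -0.51 to 0.53 for Tgfb2. They ran from -0.20 to 0.12 for Fstl1, -0.18 to 0.34 for Bambi, -0.12 to 0.26 for Tgfbr1, -0.14 to 0.15 for Tgfbr2, -0.027 to 0.50 for Bmpr2, -0.31 to 0.16 for Acvr2a and -0.29 to 0.48 for Acvr2b. For Smad1 they ran from -0.034 to 0.048, for Smad2 from -0.22 to 0.054, for Smad6 from -0.12 to 1.33 and for Id3 from -0.98 to 0.050. The cause was not tested. At this depth 5 of the 44 genes had too few counts to be tested.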
